A study of Mus musculus with 6 samples.

Results

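The 72 genes described here share 1 pattern in mouse erythroid progenitors. With dexamethasone they were at 0.33 or less of their untreated level. Their group mean with GW7647 added to dexamethasone stayed near that with dexamethasone. They were chosen from the measured values by a rule on CPM (the count of a gene scaled to a library total of 1000000 counts) with 0.1 added, averaged over the 2 libraries of a group. A member had at least 1 in untreated cells, a ratio of dexamethasone to untreated of at most 0.33, and a ratio of both drugs to dexamethasone from 0.8 to 1/0.8. The tables hold 37620 genes, of which 11833 reached the untreated minimum and 169 passed the limit on dexamethasone to untreated. Of these 169 genes, 72 (42.6%) were members, 67 (39.6%) lay below the band of 0.8 to 1/0.8, 25 (14.8%) lay above it, and 5 inside it were left out by name.

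The cells, BFU-E (burst-forming units of the erythroid lineage, an early stage of red cell formation), were sorted from E14.5 fetal livers of 129/SvImJ mice. Per the labels, cells bearing CD34, CD41, CD16/32, Sca-1 or lineage markers were removed, and c-kit positive cells within the 10% lowest for CD71 were kept. Culture medium contained erythropoietin (2 U/mL), IGF-1 (40 ng/mL) and SCF, the ligand of c-kit (100 ng/mL). The first group, Dex plus GW7647, had 100 nM dexamethasone with 10 µM GW7647, which activates the nuclear receptor PPARα. The second group, Dex, had 100 nM dexamethasone, a synthetic agonist of the glucocorticoid receptor. The third group was untreated. Each group had 2 libraries, and the labels do not say whether the pair came from separate cultures or animals, so p-values measure only the spread between these samples. A treatment of 12 h is given by the labels, while the column headers of 1 of the 2 tables carry another time. The labels do not state if the untreated group was kept in culture. Effects of dexamethasone and of time in culture on these genes therefore cannot be told apart. No group had GW7647 alone, so its own effect on these genes was not measured.

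The glucocorticoid receptor is a hormone-activated transcription factor. It raises many genes by binding DNA at palindromic response elements, and it lowers others, classically inflammatory and interferon-driven genes, through contacts with factors such as AP-1 and NF-kappaB and through loss of enhancer activity. PPARα pairs with the retinoid X receptor and is best known for control of fatty acid oxidation. In the erythroid lineage, glucocorticoids are known to sustain the self-renewal of progenitors during stress erythropoiesis.

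Libraries held 46716806 and 35970286 counts with Dex plus GW7647, 54174801 and 45058773 with Dex, and 37577414 and 39791302 untreated. The erythroid label was checked against 17 erythroid progenitor genes, all of them measured. Kit, the stem cell factor receptor used in the sort, was at 303 and 303 CPM with Dex plus GW7647, 303 and 299 CPM with Dex, and 93.0 and 93.7 CPM untreated. Gata1, the master erythroid transcription factor, was at 246 and 244 CPM with Dex plus GW7647, 255 and 242 CPM with Dex, and 249.96 and 269 CPM untreated. Tfrc, which encodes CD71, was at 1607 and 1595 CPM with Dex plus GW7647, 1527 and 1642 CPM with Dex, and 2347 and 2220 CPM untreated. The 17 genes summed to 7924 to 7949.7 CPM with Dex plus GW7647, 7764 to 7864 CPM with Dex and 11619.7 to 11711 CPM untreated, with 11 called lower with Dex than untreated, 4 higher and 2 neither. Markers of other cell types had smaller sums, which also moved with the groups. The summed level of 22 megakaryocyte and platelet genes was 755 to 764 CPM with Dex plus GW7647, 1104 to 1144 CPM with Dex and 2032 to 2060 CPM untreated. Among them Itga2b, which encodes CD41, was at 142 and 140 CPM with Dex plus GW7647, 228 and 200 CPM with Dex, and 209 and 214 CPM untreated. That of 20 granulocyte and eosinophil genes was 118 to 119 CPM with Dex plus GW7647, 192 to 200.02 CPM with Dex and 367 to 389 CPM untreated. The 14 lymphoid genes, with the B cell marker Ms4a1 at 0, summed to 1.09 to 1.251 CPM with Dex plus GW7647, 2.04 to 2.42 CPM with Dex and 4.65 to 5.62 CPM untreated. The 11 hepatoblast genes, with Serpina1a at 0, summed to 5.34 to 5.91 CPM with Dex plus GW7647, 7.83 to 8.90 CPM with Dex and 3.07 to 3.43 CPM untreated. The 12 endothelial and stromal genes summed to 22.3 to 23.5 CPM with Dex plus GW7647, 32.2 to 32.3 CPM with Dex and 26.3 to 29.3 CPM untreated. The part of such cells in the lower level of the 72 genes was not tested. In bulk libraries such as these, fewer cells of a type and less RNA per cell cannot be told apart.

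**Figure D1:**
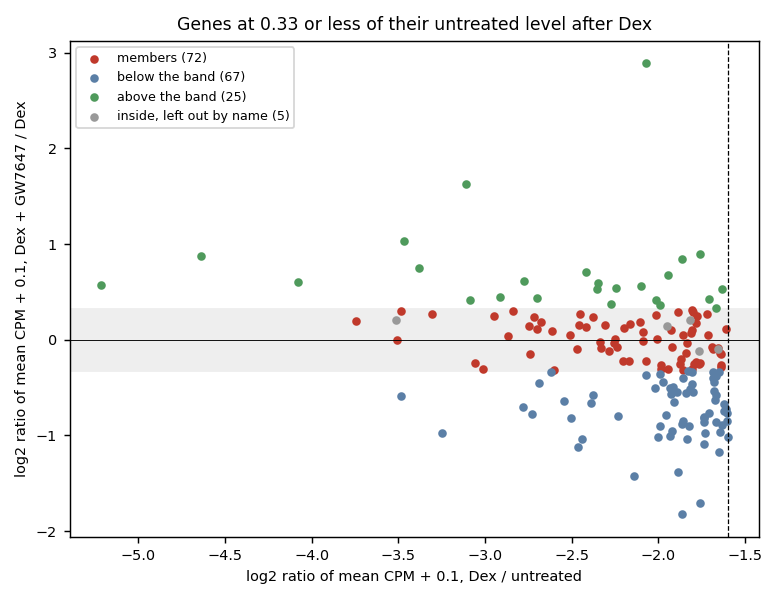
All 169 genes at 0.33 or less of their untreated level after dexamethasone, each a point at the log2 ratio of mean CPM + 0.1 for Dex over untreated (x) and for Dex plus GW7647 over Dex (y). The shaded band runs from 0.8 to 1/0.8 on the ratio scale, the dashed line marks 0.33, and the 72 members (red) lie within the band, beside 67 genes below it (blue), 25 above it (green) and 5 left out by name (grey).

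Together the members made up 368 and 368 CPM with Dex plus GW7647, 344 and 351 CPM with Dex, and 1502 and 1498 CPM untreated. That is 0.0368% of counts with Dex plus GW7647, 0.0348% with Dex and 0.150% untreated. The 5 members with the most reads held 53.1% of the untreated sum, and CPM is not corrected for transcript length. The ratio of Dex to untreated ranged from 0.0747 to 0.328 with a median of 0.237. It was at most 0.1 in 3 genes, between 0.1 and 0.2 in 21 and above 0.2 in 48. All 72 had both untreated libraries above all 4 drug-treated libraries, and the rule made this pattern likely. With CPM + 0.1, the median untreated level was 4.18 in members, 4.6 in the strongly lowered genes below the band and 12.0 in those above it. By the same measure the median ratio of Dex to untreated was 0.237 in members, 0.276 below the band and 0.196 above it.

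Across all 14125 genes passing a filter on low counts, edgeR's quasi-likelihood test with Benjamini-Hochberg adjustment called 26.0% lower and 25.5% higher with Dex than untreated. All 72 members passed that filter and were called lower, a count that follows from how they were chosen and is given as a description. Their fitted log2 differences had a median of -2.36, from -4.28 to -1.78, beside a median of 0.01 over all tested genes. With Dex plus GW7647 against untreated, which reuses the same untreated libraries, 25.1% of tested genes and all 72 members were called lower, with a median of -2.40. Fitted differences use trimmed mean of M values (TMM) scaling and not the 0.1 added to CPM, so they are not the rule's ratios on a log scale. Scaling by library totals in place of TMM moves the log2 difference of the median gene up by 0.13.

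The members just inside the untreated minimum were A530013C23Rik at 1.05, Tac2 at 1.06 and Adgre1 at 1.09 CPM + 0.1. Just outside it lay Mgl2 at 0.921, Pkia at 0.903 and Cacna2d4 at 0.864. For the ratio of Dex to untreated, Arhgap28 at 0.328, Trim66 at 0.321 and Gm2a at 0.321 lay just inside, and Pear1 at 0.331, Slc43a2 at 0.331 and Nhlrc4 at 0.333 just outside. At the lower edge of the band, Abca8b at 0.804, Gzmb at 0.805 and Rbpms2 at 0.807 were members. Actr3b at 0.798, Gnaz at 0.795 and Clu at 0.793 were not. At the upper edge, Fgfrl1 at 1.24, Nyx at 1.23 and St6gal1 at 1.23 were members. Tmem65 at 1.26, a gene without a symbol at 1.29 and Ikzf4 at 1.30 were not. Neighbours across a limit differed by as little as a few thousandths in the ratio, so the limits mark a range and not a break in the data.

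**Figure D2:**
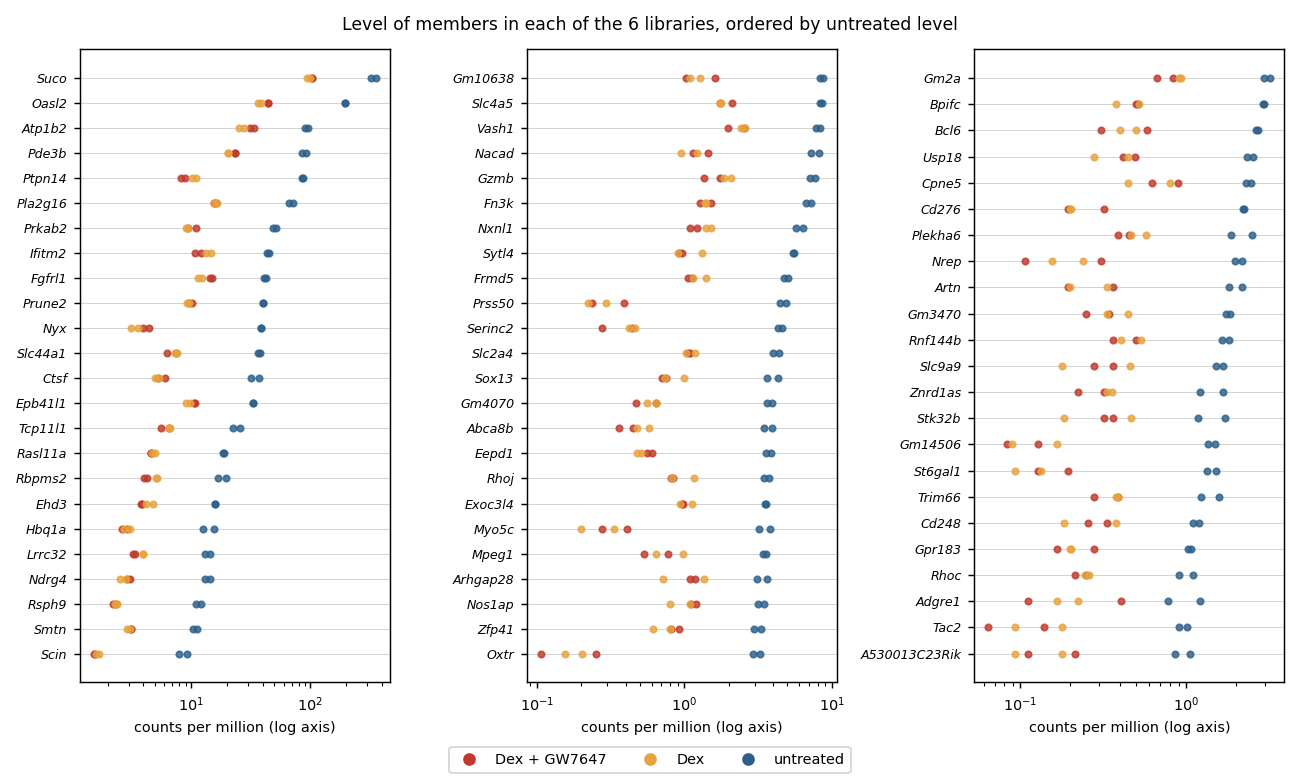
CPM of 71 of the 72 members in each of the 6 libraries on log axes, in 3 panels ordered by untreated level, with Dex plus GW7647 in red, Dex in orange and untreated in blue. Untreated points lie to the right of the 4 drug-treated points in every row, while red and orange points overlap in 42 rows.

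Interferon response and innate immunity genes gave 5 members. Oasl2, a member of the oligoadenylate synthetase-like family induced by interferon, was at 44.2 and 44.5 CPM with Dex plus GW7647, 38.4 and 36.6 CPM with Dex, and 194 and 196 CPM untreated. Both drug-treated groups lay far below the untreated pair, and the Dex plus GW7647 libraries lay slightly above the Dex libraries with no overlap. Ifitm2, a membrane protein that restricts virus entry, was at 10.8 and 12.2 CPM with Dex plus GW7647, 13.5 and 14.6 CPM with Dex, and 43.0 and 45.2 CPM untreated, so here the small offset ran the other way. Usp18, a protease that dampens interferon receptor signalling, was at 0.492 and 0.417 CPM with Dex plus GW7647, 0.277 and 0.444 CPM with Dex, and 2.53 and 2.31 CPM untreated. Gm4070, related to the very large interferon-inducible GTPases, was at 0.471 and 0.639 CPM with Dex plus GW7647, 0.646 and 0.555 CPM with Dex, and 3.91 and 3.64 CPM untreated. Its near-identical relative Gvin1 was at 1.28 and 1.14 CPM with Dex plus GW7647, 0.665 and 0.954 CPM with Dex, and 5.30 and 3.79 CPM untreated, and reads could be split between the pair. Mpeg1, a pore-forming protein of phagocytes, was at 0.535 and 0.778 CPM with Dex plus GW7647, 0.646 and 0.977 CPM with Dex, and 3.59 and 3.42 CPM untreated. In Usp18, Gm4070 and Mpeg1 the drug-treated groups overlapped.

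The promoters of Ifitm2 and Oasl2 are shown because these members had the most reads of the interferon response genes and hold different motifs. Each window runs 5′ to 3′ on the gene's strand from 250 bases before to 50 bases after a RefSeq start site, in build GRCm38.p6. For Ifitm2 (chr7:140955912-140956211, minus strand) the capitals mark the core of the interferon-stimulated response element, GAAA and GAAA with 2 bases of any kind between, which begins at -46 from the start site. For Oasl2 (chr5:114896684-114896983, plus strand) they mark AGAACA, a single arm of the palindromic glucocorticoid response element, which begins at -9.
Ifitm2: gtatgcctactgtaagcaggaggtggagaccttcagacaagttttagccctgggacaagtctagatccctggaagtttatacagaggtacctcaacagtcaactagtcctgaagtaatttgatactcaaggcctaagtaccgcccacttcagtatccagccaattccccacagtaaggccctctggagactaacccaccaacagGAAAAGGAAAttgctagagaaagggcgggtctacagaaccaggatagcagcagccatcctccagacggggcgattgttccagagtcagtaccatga
Oasl2: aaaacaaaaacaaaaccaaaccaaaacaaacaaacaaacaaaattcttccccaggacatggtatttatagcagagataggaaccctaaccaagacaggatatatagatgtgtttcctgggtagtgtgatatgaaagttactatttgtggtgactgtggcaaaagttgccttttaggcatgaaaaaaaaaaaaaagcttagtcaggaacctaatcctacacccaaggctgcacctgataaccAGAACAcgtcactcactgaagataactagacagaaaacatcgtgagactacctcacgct
The interferon core was present in the window of 1 of 56 members matched to a RefSeq promoter (1.79%), Ifitm2, and in 3.53% of 9986 tested genes with one. The Oasl2 window does not hold it, and a motif match is a description of letters, not of binding.

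A list of 43 interferon-stimulated genes, 2 of them members (Oasl2 and Usp18), places these values among their pathway. Of 31 tested, 19 were called lower with Dex than untreated, 4 higher and 8 neither, with a median log2 difference of -0.62. The rule placed the members at the lower end of that spread, with fitted log2 differences of -2.51 ± 0.05 (SE) for Oasl2 and -2.89 ± 0.24 for Usp18. In all, 5 genes of the list passed the rule's limits on untreated level and on Dex to untreated. Rsad2, an antiviral enzyme outside the membership, was at 9.53 and 10.4 CPM with Dex plus GW7647, 6.94 and 7.61 CPM with Dex, and 55.2 and 55.6 CPM untreated. Rsad2 (log2 difference 0.46 ± 0.08, edgeR adjusted p = 0.00624) and Oasl2 were the 2 genes of the list called higher with Dex plus GW7647 than Dex, and Usp18 differed by 0.38 ± 0.32 without being called. Genes of the same list that were called higher with Dex included Irf9, an interferon regulatory factor (log2 difference 0.31 ± 0.05), and Bst2, which tethers budding virus (0.75 ± 0.06). With Dex plus GW7647 against Dex, 8 of the 31 were called lower, 2 higher and 21 neither, with a median log2 difference of -0.25. The plot of interferon-stimulated genes shows 30 of the 31.

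**Figure D3:**
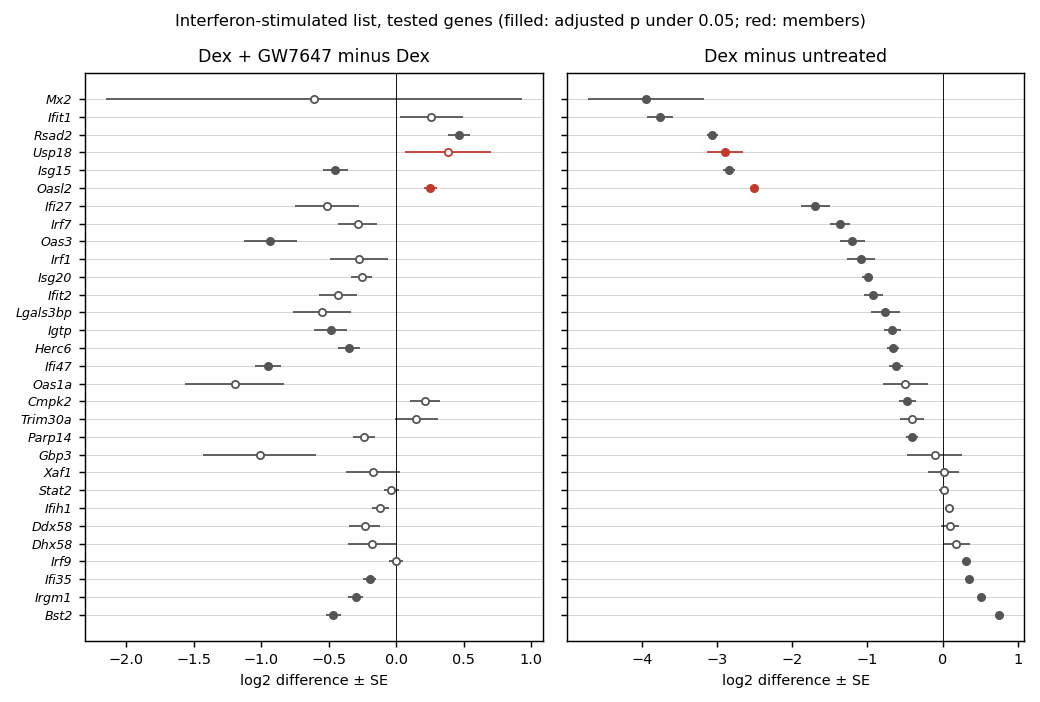
Fitted log2 differences ± SE of 30 of the 31 tested interferon-stimulated genes for Dex plus GW7647 minus Dex (left) and Dex minus untreated (right), ordered by the right panel. Filled points had an edgeR adjusted p under 0.05, and red marks the members Oasl2 and Usp18, which lie at -2.51 and -2.89 on the right and at 0.25 and 0.38 on the left.

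Immune surface, granule and lysosome genes gave 7 members. Ctsf, the lysosomal protease cathepsin F, was at 6.08 and 5.25 CPM with Dex plus GW7647, 5.43 and 5.04 CPM with Dex, and 31.8 and 37.4 CPM untreated. Cd276, an immune checkpoint ligand, was at 0.321 and 0.195 CPM with Dex plus GW7647, 0.203 and 0.20 CPM with Dex, and 2.21 and 2.24 CPM untreated. Lrrc32, which holds latent TGF-beta on the cell surface, was at 3.25 and 3.39 CPM with Dex plus GW7647, 3.97 and 3.97 CPM with Dex, and 14.503 and 13.0 CPM untreated. Ctsf and Cd276 overlapped between the drug-treated groups, and Lrrc32 did not. Gm2a, an activator of ganglioside breakdown in lysosomes, had ratios of Dex to untreated of 0.321, and Gpr183, an oxysterol receptor that guides immune cells, of 0.263.

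Gzmb and Adgre1 are also markers of other blood cells. Gzmb encodes granzyme B, a protease of cytotoxic and mast cell granules, and was at 1.37 and 1.75 CPM with Dex plus GW7647, 1.86 and 2.06 CPM with Dex, and 7.64 and 7.14 CPM untreated. Of 12 tested genes of the mast cell and basophil list, 7 were called lower with Dex than untreated and 4 higher, and the 15 listed genes summed to 327 to 330.0 CPM with Dex plus GW7647, 547 to 554 CPM with Dex and 249.1 to 252 CPM untreated. The sum is carried by genes such as Hdc, the histamine-forming enzyme, that rose with Dex (log2 difference 2.31 ± 0.05). Mast cell proteases of the list went both ways. Cpa3 and Cma1 fell, while the tryptase Tpsb2 rose with Dex (log2 difference 0.59 ± 0.16). Cpa3 was at 11.5 and 11.5 CPM with Dex plus GW7647, 15.5 and 17.1 CPM with Dex, and 62.2 and 62.9 CPM untreated. With Dex plus GW7647 against Dex, Cpa3 (log2 difference -0.49 ± 0.07) and Cma1 (-1.88 ± 0.12) were called lower by edgeR (edgeR adjusted p = 0.00196 for Cpa3 and edgeR adjusted p = 1.08e-05 for Cma1). Gzmb itself differed by -0.33 ± 0.17 there and was not called. In the same comparison 9 of the 12 tested genes of the list were called lower and 0 higher. The ratio of Gzmb, 0.805, lay just above the rule's limit of 0.8, so the missing call does not set Gzmb apart from the list.

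Adgre1 encodes the macrophage surface protein F4/80 and was among the members with the fewest reads. It had 19 and 4 counts with Dex plus GW7647 (0.407 and 0.111 CPM), 9 and 10 counts with Dex (0.166 and 0.222 CPM), and 29 and 48 counts untreated (0.772 and 1.21 CPM). The replicates of Dex plus GW7647 differed more from each other than from the Dex libraries. Of 8 tested monocyte and macrophage genes, 5 were called lower with Dex than untreated and 2 higher. The 16 listed genes summed to 47.0 to 47.4 CPM with Dex plus GW7647, 79.8 to 87.0 CPM with Dex and 60.5 to 61.5 CPM untreated, and the macrophage complement gene C1qa was at 0 in all libraries. What part such cells have in the values of Gzmb and Adgre1 was not tested.

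Ligands, receptors and secreted proteins gave 7 members. Oxtr, the oxytocin receptor, had few reads in drug-treated cells, with 5 and 9 counts with Dex plus GW7647 (0.107 and 0.25 CPM), 11 and 7 counts with Dex (0.203 and 0.155 CPM), and 122 and 116 counts untreated (3.25 and 2.92 CPM). Its ratio of Dex to untreated, 0.0878, was the second lowest of the members. Fgfrl1, a fibroblast growth factor receptor without a kinase domain, was at 15.1 and 14.48 CPM with Dex plus GW7647, 11.4 and 12.4 CPM with Dex, and 41.0 and 42.7 CPM untreated. Artn, a ligand of the GDNF family, was at 0.364 and 0.195 CPM with Dex plus GW7647, 0.332 and 0.20 CPM with Dex, and 1.81 and 2.16 CPM untreated. The drug-treated groups overlapped for Oxtr and Artn, and not for Fgfrl1. The ratio of Dex to untreated was 0.222 for the tachykinin precursor Tac2, 0.304 for the stromal membrane protein Cd248 and 0.320 for Vash1, which removes tyrosine from tubulin. Among 42 tested genes of a list of 60 G protein-coupled receptors, which includes Oxtr and Gpr183, 21 were called lower with Dex than untreated, 10 higher and 11 neither, with a median log2 difference of -0.46. With Dex plus GW7647 against Dex, 15 of the 42 were called lower and 1 higher, beside 7.58% and 2.15% of all tested genes. Neither Oxtr nor Gpr183 was among them, which the rule's bound on this ratio and their few reads made likely.

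Intracellular signalling proteins are encoded by 11 members. Ptpn14, a tyrosine phosphatase that binds the growth regulator YAP, was at 8.88 and 8.17 CPM with Dex plus GW7647, 10.9 and 10.1 CPM with Dex, and 86.5 and 84.9 CPM untreated. Its replicates lay close together within each group, and none of the 3 groups overlapped. Pde3b, a phosphodiesterase that breaks down cyclic AMP, was at 23.4 and 23.2 CPM with Dex plus GW7647, 20.3 and 20.6 CPM with Dex, and 91.5 and 85.6 CPM untreated. Prkab2, a regulatory subunit of the energy sensor AMP-activated kinase, was at 10.9 and 9.51 CPM with Dex plus GW7647, 9.16 and 9.45 CPM with Dex, and 48.9 and 51.6 CPM untreated. In Pde3b and Prkab2 the Dex plus GW7647 libraries lay above the Dex libraries by a small margin. Several members are small GTPases or act on them. The ratio of Dex to untreated was 0.263 for the Ras-like GTPase Rasl11a, 0.295 for Rhoj, 0.318 for Rhoc and 0.328 for Arhgap28, a GTPase-activating protein. Nos1ap, an adaptor of nitric oxide synthase, had the highest ratio of Dex plus GW7647 to untreated among the members, 0.366.

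Transport proteins and vesicle or cytoskeleton proteins made up 7 and 10 members. Atp1b2, a beta subunit of the sodium pump, was at 31.2 and 33.7 CPM with Dex plus GW7647, 25.1 and 28.0 CPM with Dex, and 90.4 and 94.7 CPM untreated. Slc44a1, a choline transporter, was at 6.29 and 7.53 CPM with Dex plus GW7647, 7.70 and 7.37 CPM with Dex, and 36.6 and 37.6 CPM untreated. Slc2a4, the insulin-responsive glucose transporter, was at 1.09 and 1.06 CPM with Dex plus GW7647, 1.18 and 1.02 CPM with Dex, and 3.99 and 4.37 CPM untreated. Only Atp1b2 of these separated the drug-treated groups. Serinc2, a membrane protein of the serine incorporator family, had the lowest ratio of Dex to untreated of the transport group, 0.120. Epb41l1, a band 4.1 protein of the membrane skeleton, was at 10.9 and 10.5 CPM with Dex plus GW7647, 9.12 and 9.88 CPM with Dex, and 32.9 and 32.9 CPM untreated. Myo5c, an unconventional myosin of vesicle transport, was at 0.407 and 0.278 CPM with Dex plus GW7647, 0.332 and 0.20 CPM with Dex, and 3.83 and 3.22 CPM untreated, which made its ratio of Dex to untreated 0.101. The actin-severing protein Scin had a ratio of 0.199, and the smooth muscle protein Smtn of 0.285.

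Another 5 members act in transcription or bind RNA, and 5 are other enzymes. Bcl6, a transcriptional repressor best known from B cells, was at 0.578 and 0.306 CPM with Dex plus GW7647, 0.498 and 0.399 CPM with Dex, and 2.63 and 2.71 CPM untreated. It is the only member in a list of 29 glucocorticoid receptor targets, of which 28 were tested, 18 called higher with Dex than untreated, 6 lower and 4 neither, with a median log2 difference of 0.60. In that list Fkbp5, a chaperone partner of the receptor, was at 129 and 128 CPM with Dex plus GW7647, 129 and 125 CPM with Dex, and 37.3 and 38.5 CPM untreated. The receptor gene Nr3c1 was at 59.7 and 61.2 CPM with Dex plus GW7647, 58.8 and 63.4 CPM with Dex, and 60.6 and 60.1 CPM untreated, and its groups overlapped. Prss50, a serine protease known from testis, had the lowest ratio of Dex to untreated of all members, 0.0747. It had 11 and 14 counts with Dex plus GW7647 (0.235 and 0.389 CPM), 16 and 10 counts with Dex (0.295 and 0.222 CPM), and 168 and 196 counts untreated (4.47 and 4.93 CPM). Pla2g16, a phospholipase abundant in fat cells, was at 15.6 and 16.2 CPM with Dex plus GW7647, 16.6 and 15.6 CPM with Dex, and 66.3 and 71.9 CPM untreated. St6gal1, which adds sialic acid to glycoproteins, had 6 and 7 counts with Dex plus GW7647, 5 and 6 counts with Dex, and 50 and 60 counts untreated.

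The remaining 15 members share no role. Suco, an endoplasmic reticulum protein needed for bone formation in mice, had the most reads of any member, at 104 and 103 CPM with Dex plus GW7647, 93.6 and 99.0 CPM with Dex, and 354 and 322 CPM untreated. Nyx, the retinal proteoglycan nyctalopin, was at 4.41 and 3.98 CPM with Dex plus GW7647, 3.16 and 3.6 CPM with Dex, and 39.0 and 38.5 CPM untreated, with a ratio of Dex to untreated of 0.0895. Prune2 was at 9.68 and 10.2 CPM with Dex plus GW7647, 9.65 and 9.19 CPM with Dex, and 40.4 and 40.3 CPM untreated. Of these, Prune2 had the narrowest gap between the drug-treated groups, and all 3 were separated from the untreated pair. Hbq1a, a theta globin gene, was at 2.89 and 2.64 CPM with Dex plus GW7647, 3.06 and 2.77 CPM with Dex, and 12.6 and 15.7 CPM untreated. Its near-identical copy Hbq1b was at 20.6 and 21.9 CPM with Dex plus GW7647, 20.5 and 18.7 CPM with Dex, and 54.3 and 58.9 CPM untreated, and counting could split reads between the copies. All globin genes together took 2.82% and 2.76% of counts with Dex plus GW7647, 3.12% and 2.96% with Dex, and 6.49% and 7.16% untreated. Protein-coding genes made up 69 of the 72 members (95.8%) and 89.4% of annotated tested genes. The pseudogenes Gm3470 and Gm14506 and the long noncoding RNA A530013C23Rik were the other 3. Exons of 5 members overlap a gene on the opposite strand, and the sources used here do not say whether counting used strand: Slc44a1, Smtn, Gm10638, Abca8b and St6gal1. The partner of Gm10638, the ubiquitin ligase gene Siah1a, shares 118 exon bases with it, averaged 33.2 CPM over the 6 libraries and had a log2 difference of -1.55 between Dex and untreated. The other partners averaged at most 0.146 CPM.

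The match of the drug-treated groups could be judged only within the intervals of the fit, which were widest among members with few reads. The ratio of Dex plus GW7647 to Dex ran from 0.804 to 1.24 with a median of 1.0, above 1 in 36 members and below 1 in 36. Libraries of these groups did not overlap in 29 members, 14 with the Dex plus GW7647 libraries higher and 15 with them lower, and 52.9% of tested genes did not overlap. edgeR called 3 members higher with Dex plus GW7647 than Dex (2.15% of tested genes) and 1 lower (7.58% of tested genes), 4 in either direction where 9.73% of tested genes were called, and 9 members had an unadjusted p under 0.05. Since the rule bounds this ratio, these counts describe the members and give no evidence on GW7647. The 95% interval of the fitted difference lay within the band, ±0.32 on the log2 scale, in 4 members: Suco, Pla2g16, Prune2 and Rasl11a. It passed the lower edge in 52 members, the upper edge in 49 and both in 33, and the median distance from estimate to interval end was 0.49. For the members whose interval passed an edge, the interval still included a change larger than the band allows. Among the other strongly lowered genes, 35 of 67 below the band were called lower and 16 of 25 above it higher.

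**Figure D4:**
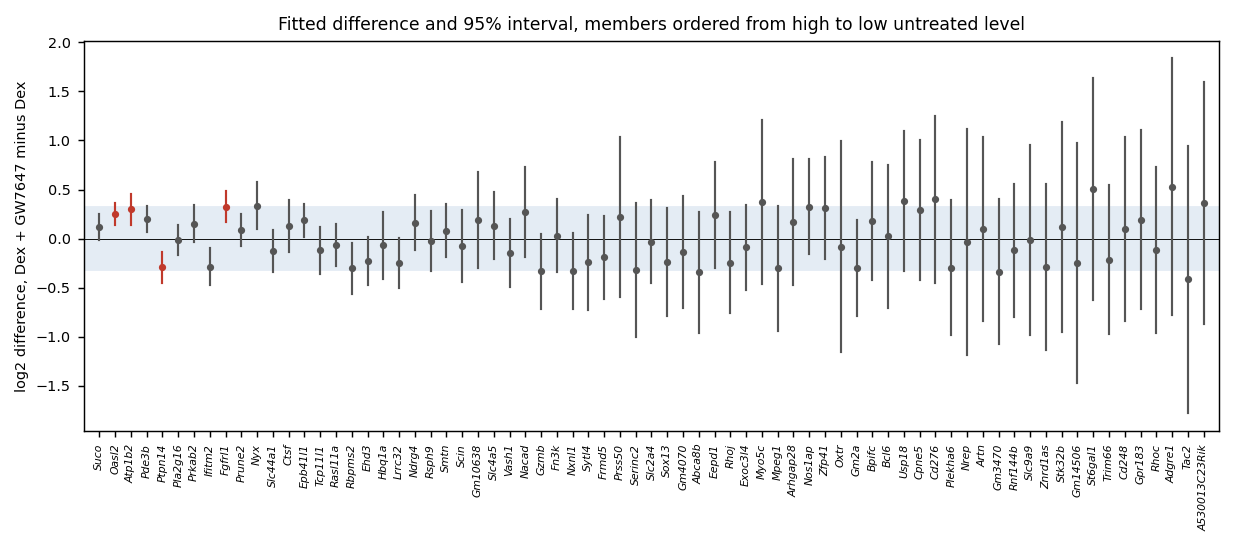
Fitted log2 difference with its 95% interval for Dex plus GW7647 minus Dex in 71 of the 72 members, ordered from high to low untreated CPM. The shaded band is ±0.32, the 4 called members are red (Oasl2, Atp1b2 and Fgfrl1 above 0, Ptpn14 below it), and intervals widen toward the members with few reads on the right.

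The 4 called members had small differences in the fit to all 6 libraries. The log2 difference of Dex plus GW7647 minus Dex was 0.25 for Oasl2 (95% interval 0.14 to 0.36, edgeR adjusted p = 0.00988), 0.30 for Atp1b2 (0.14 to 0.46, edgeR adjusted p = 0.0262) and 0.33 for Fgfrl1 (0.17 to 0.48, edgeR adjusted p = 0.0182). That of Ptpn14 was -0.29 (-0.45 to -0.13, edgeR adjusted p = 0.0305). The differences of Dex minus untreated were -2.51 for Oasl2, -1.93 for Atp1b2, -1.95 for Fgfrl1 and -3.15 for Ptpn14. The rule required a large fall with Dex and bounded the ratio of the drug-treated groups. The contrast in size therefore follows from how members were chosen. None of the 4 calls held when either Dex plus GW7647 library was left out: the adjusted p was 0.0951 and 0.117 for Oasl2, 0.0605 and 0.222 for Atp1b2, 0.160 and 0.0898 for Fgfrl1, and 0.101 and 0.251 for Ptpn14. Those fits have 1 library fewer, and the log2 differences stayed at 0.26 and 0.24 for Oasl2, 0.36 and 0.24 for Atp1b2, 0.30 and 0.35 for Fgfrl1, and -0.35 and -0.24 for Ptpn14. Without Dex replicate 1, the call was lost for Atp1b2 (0.108), Fgfrl1 (0.0788) and Ptpn14 (0.128) and kept for Oasl2 (0.0143). The reverse was seen for Ifitm2, called lower without Dex replicate 1 (adjusted p = 0.0445), and Nyx, called higher without Dex replicate 2 (adjusted p = 0.0389).

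Promoter windows of 300 bases were compared between the 56 matched members and 9986 tested genes with a RefSeq promoter, counting a gene when any of its windows held the motif on either strand. There were 1.32 windows per gene in members and 1.27 in tested genes. The AP-1 motif TGANTCA was present in 8 members (14.3%) and in 6.04% of tested genes. Those members were Epb41l1, Gzmb, Nos1ap, St6gal1, Slc9a9, Bpifc, Znrd1as and A530013C23Rik. This pattern accepts any middle base, and in St6gal1 and Slc9a9 the match was TGAATCA, while the others held TGACTCA or TGAGTCA. The share of tested genes was counted with the same loose pattern. Epb41l1 and Gzmb are shown because their levels are given above and their matches lie within 75 bases of the start site, at -72 and -58 in Epb41l1 and at -58 in Gzmb. Capitals mark the AP-1 motif in the windows of Epb41l1 (chr2:156475284-156475583, plus strand) and Gzmb (chr14:56262285-56262584, minus strand), in build GRCm38.p6.
Epb41l1: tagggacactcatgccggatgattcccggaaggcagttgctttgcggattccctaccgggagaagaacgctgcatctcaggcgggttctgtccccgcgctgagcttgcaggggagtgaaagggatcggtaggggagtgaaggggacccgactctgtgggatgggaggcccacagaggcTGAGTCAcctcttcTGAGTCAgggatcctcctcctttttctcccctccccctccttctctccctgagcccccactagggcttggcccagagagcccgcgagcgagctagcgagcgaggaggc
Gzmb: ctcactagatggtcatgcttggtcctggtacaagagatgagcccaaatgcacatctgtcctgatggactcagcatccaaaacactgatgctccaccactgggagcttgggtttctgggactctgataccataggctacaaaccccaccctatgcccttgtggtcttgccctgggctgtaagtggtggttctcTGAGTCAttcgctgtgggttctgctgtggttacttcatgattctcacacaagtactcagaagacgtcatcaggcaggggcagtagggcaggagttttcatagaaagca
The palindromic glucocorticoid response element, AGAACA and TGTTCT with 3 bases between, was present in 0 of the 56 members and in 0.01% of tested genes. Its single arm AGAACA, which lies within the full element, was present in 12.5% of members (A530013C23Rik, Bcl6, Bpifc, Mpeg1, Nyx, Oasl2 and Slc4a5) and in 14.9% of tested genes. The negative glucocorticoid element, CTCC and GGAGA with 1 base between, was in 1.79% of members, Fgfrl1 alone, and in 0.861% of tested genes, and the PPAR element, AGGTCA repeated after 1 base, in 0 members and 0.0601% of tested genes. The ETS motif CCGGAAGT was in 1.79% of members and 9.28% of tested genes. Other shares in members and tested genes were 23.2% and 17.5% for the E-box CAGCTG, 26.8% and 30.2% for the NF-kappaB motif (GGGA and CC with 4 bases between), and 8.93% and 8.21% for the GATA motif AGATAA. They were 17.9% and 17.0% for the antioxidant element TGACNNNGC, 1.79% and 3.55% for the cyclic AMP element TGACGTCA, and 3.57% and 2.74% for the composite motif TGATGNAA. The TATA motif TATAAA gave 12.5% and 8.49%, and CCAAT gave 42.9% and 43.4%. For GC content and CpG pairs, the highest value among the windows of each gene was taken. By this measure median GC content was 61.8% in members and 61.7% in tested genes. The median number of CpG pairs was 19 in members, with quartiles of 6 and 31. It was 22 in tested genes, with quartiles of 14 and 30. No test was made of these shares, and reads were mapped by the authors to an earlier build than the one of these windows.

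Genes next to the members on the chromosome were also often lower. For each member the tested genes before and after it gave 144 places, of which 63 (43.8%) held a gene called lower with Dex than untreated, 20 (13.9%) a gene called higher and 61 neither. Places beside the other strongly lowered genes held a lower gene in 38.4%, those beside any gene called lower in 31.9%, and those beside any tested gene in 26.6%. Without neighbours that share exons with the member, 61 of 142 places (43.0%) held a lower gene. Members themselves held 6 of these 61 places and are lower by the rule. The pairs Bcl6 and St6gal1, Sox13 and Plekha6, and Nyx and Gm14506 were neighbours with both genes members. Serinc2 stood beside Tinagl1, a secreted matrix protein gene, which was at 2.35 and 2.81 CPM with Dex plus GW7647, 2.03 and 1.80 CPM with Dex, and 16.5 and 17.5 CPM untreated, with a ratio of Dex to untreated of 0.118. These shares are a description and were not tested.

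**Figure D5:**
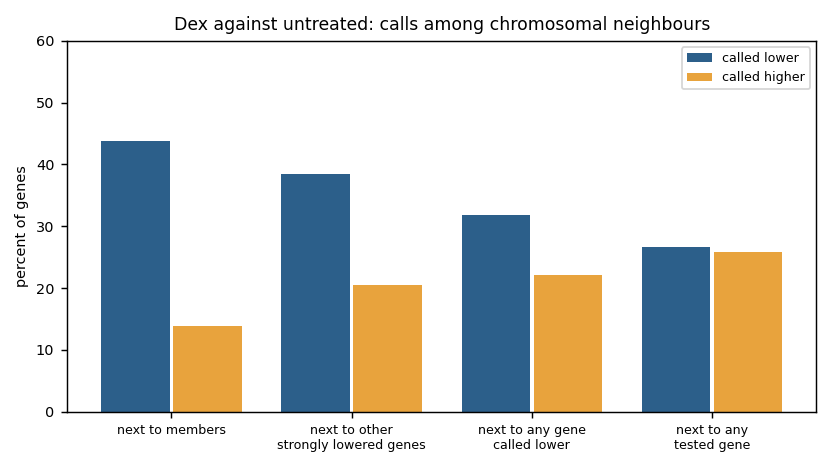
Percent of chromosomal neighbour places holding a gene called lower (blue) or higher (orange) with Dex than untreated, for neighbours of the 72 members, of the other strongly lowered genes, of any gene called lower and of any tested gene. The share called lower is 43.8% beside members, where 6 places hold other members, and 26.6% beside any tested gene.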

How the data were processed

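Per the labels' protocols, TRIzol was used for RNA and a TruSeq kit with polyA selection for the libraries. The submitters' processing notes name TopHat 1.4.1, HTSeq and DESeq and the builds mm9 and NCBIM37; the strand setting is not given in the sources used here. The authors deposited whole-number read counts per Ensembl gene in 2 tables, with 2 libraries for each of 3 groups. A normalized signal, each count divided by a size factor set by the authors per table, was deposited beside them and not used. Symbols came from GENCODE M21 (32897 of 37620 identifiers, all 72 members included), and no file coordinates are printed.

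Counts were fitted in edgeR 4.0.16 (R 4.3.3) over all 6 libraries, with TMM scaling, a filter at a minimum count of 10 (14125 genes, holding 99.97% of counts), the quasi-likelihood test and Benjamini-Hochberg adjustment over all tested genes at 0.05. Log2 differences are the group named ahead minus the one named after it. DESeq2 1.42.0 and other settings were alternatives. The fit was tested on simulated data. Replicates differed beyond sampling noise, with a chi-square per degree of freedom of 3.67 with Dex plus GW7647, 19.3 with Dex and 7.99 untreated, so no library is a repeat deposit. Depth, 35970286 to 54174801 counts, limits low members. The lowest count was 3 in a Dex plus GW7647 library, 4 in a Dex library and 29 in an untreated one.

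The members, gene lists and motifs were chosen with earlier results of these data known, and the role groups after the members were known, so no list is independent evidence. Named genes were the 15 members with the highest untreated CPM, the 15 with the lowest ratio of Dex to untreated, members in a list, the 3 genes on each side of a threshold, called members, and other members by function. Genes beside a member were named as list members, near copies, overlapping genes or chromosomal neighbours, the last 3 after their values were seen. The lists printed are those that hold a member and those used to check the cell type. Promoters are RefSeq windows of GRCm38.p6, for 56 members. Some genes are not reported here.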

Additional observations from a re-analysis of the deposited data

How the results depend on the processing

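The number of genes that satisfied the rule moved with its limits: 42 with 1 in place of 0.1 added to CPM (32 of the 72 among them), 39 with a ratio of Dex to untreated of at most 0.25, 142 with at most 0.4, 109 with a band of 0.67 to 1.5 and 33 with an untreated minimum of 5. It was 95 with TMM scaling and 94 with DESeq2 size factors, all 72 included in each, 66 with nothing added (60 shared), and 59 to 76 with 1 library left out (50 to 70 shared). All 72 were called lower with Dex than untreated, and with Dex plus GW7647 than untreated, in each alternative with 2 libraries per group. The rule chose them by their fall in these same libraries, so these counts are only a description. With Dex plus GW7647 against Dex, the count called lower was 2 with no filter on low counts and 0 with only the 4 libraries compared (edgeR adjusted p = 0.0860 for Ptpn14), and 0 to 1 with 1 library left out. The count called higher was 3 with DESeq2 and 4 with no filter, and 0 to 4 with 1 library left out. Over the 4 called members, 32 of the 44 alternative values kept the call, 12 lost it and none changed sign. Whether same-numbered libraries were prepared together cannot be told from 2 libraries per group. Deviations of same-numbered libraries correlated at -0.21 for Dex with untreated. They correlated at 0.15 for Dex plus GW7647 with Dex and at -0.05 for Dex plus GW7647 with untreated. A fit with the replicate block called 72 members lower with Dex than untreated and 3 higher with Dex plus GW7647 than Dex, and 1 lower. A crossed replicate block for Dex against untreated, chosen after seeing the data, also called 72. Left-out libraries leave a lone sample that is assumed to vary like the other groups.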
